A study of Mus musculus with 6 samples.

Results

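The 6 genes described here, Svs2, Svs4, Svs5, Svs6, Pate4 and Ceacam10, encode secretory proteins of the mouse seminal vesicle, and their transcripts were measured in epididymal white fat. They were taken by gene symbol from the platform annotation and have 1 probe each, so they are 6 of the 13409 genes named on the array and 6 of its 19200 probes. They were selected on their log2 ratios between the pools, seen over all 6 arrays, so those ratios, and their order among themselves, are given as a description with no test.

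Male C57BL/6J mice aged 12 weeks received either saline or 1 mg per kg body weight of CL-316,243, which activates the beta3-adrenergic receptor on fat cells, and their epididymal fat was taken 3 hr later. Equal amounts of RNA from the 6 mice of a treatment made up 1 pool, and both pools were hybridised together on each of 6 two-colour spotted arrays. Channel 1 held the CL-316,243 pool on arrays 1, 2 and 3, and channel 2 held it on arrays 4, 5 and 6. All arrays measure the same 2 pools, so n below counts arrays and every p-value covers array-to-array spread alone; how far mice differ was not measured.

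The seminal vesicles are paired accessory glands of the male tract whose epithelium, under the control of androgens, secretes most of the fluid of the semen. In rodents a few very abundant proteins make up much of this secretion; some are cross-linked by transglutaminase into the copulatory plug, and others bind to sperm. Epididymal fat lies beside the testis and epididymis, and these proteins are known as products of the gland and not of fat cells.

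Each value is a log ratio of the 2 channels, taken as log2. The sources used here do not state which pool is the numerator. So "lower" and "higher" mean lower and higher in whichever pool it is, and no direction below is tied to CL-316,243 or to saline. Of 72 genes outside the 6 with a mean of at least 1 in size in each dye orientation, 71 had the same sign in both, so the deposited ratios were taken to run the same way on all arrays. Placing the columns on probe numbers, described with the processing, favours such agreement. A natural log base is possible too, and every ratio would then be 1.44 times as large in log2 units. The table holds ratios and no intensities, so the level of these transcripts in either pool is unknown and the labelled tissue could not be checked against its marker genes. In such bulk RNA, fewer cells of a type and less RNA per cell cannot be told apart.

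Svs2, Svs4, Svs5 and Svs6 lie in 1 gene cluster on chromosome 2, and Ceacam10 and Pate4 on chromosomes 7 and 9, in RefSeq's GRCm38.p6 annotation. The promoter table held 5 of the 6 genes. The 250 bases before the start of transcription are shown for Svs5, Svs6 and Svs4, cluster members with very unequal ratios, and for Ceacam10, which lies elsewhere. They are written 5′ to 3′ on the strand of the gene, and capitals mark 3 short motifs on either strand: the TATA box (TATAAA or TTTATA), the half-site of the androgen receptor (AGAACA or TGTTCT) and a GATA site (GATAAG or CTTATC).
Svs5, chr2:164332515-164332764, plus strand: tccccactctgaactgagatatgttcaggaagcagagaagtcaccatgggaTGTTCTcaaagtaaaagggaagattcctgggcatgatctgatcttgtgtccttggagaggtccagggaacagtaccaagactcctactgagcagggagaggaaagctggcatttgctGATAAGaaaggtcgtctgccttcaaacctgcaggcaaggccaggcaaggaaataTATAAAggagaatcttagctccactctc
Svs6, chr2:164316501-164316750, plus strand: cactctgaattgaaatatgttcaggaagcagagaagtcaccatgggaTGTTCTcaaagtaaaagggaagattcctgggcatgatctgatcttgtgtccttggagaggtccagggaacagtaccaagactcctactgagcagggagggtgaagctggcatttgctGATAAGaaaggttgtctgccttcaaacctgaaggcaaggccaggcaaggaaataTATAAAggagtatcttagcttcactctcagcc
Svs4, chr2:164278308-164278557, minus strand: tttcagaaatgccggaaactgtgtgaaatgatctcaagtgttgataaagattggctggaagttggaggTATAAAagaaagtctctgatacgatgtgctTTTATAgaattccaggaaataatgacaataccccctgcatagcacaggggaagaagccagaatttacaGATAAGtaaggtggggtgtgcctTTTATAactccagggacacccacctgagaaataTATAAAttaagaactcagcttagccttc
Ceacam10, chr7:24776917-24777166, plus strand: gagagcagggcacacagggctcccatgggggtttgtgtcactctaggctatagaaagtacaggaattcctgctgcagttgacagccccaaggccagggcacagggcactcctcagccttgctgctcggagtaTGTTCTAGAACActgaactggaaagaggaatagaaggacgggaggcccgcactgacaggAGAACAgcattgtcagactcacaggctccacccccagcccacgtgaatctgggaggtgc

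The upstream sequences of Svs5 and Svs6 were nearly the same. Aligned with free end gaps, they had 237 identical bases, 94.8% of the 250. Svs4 shared 151 bases (60.4%) with Svs5 and 150 (60.0%) with Svs6, and Svs2 shared 118 (47.2%) with Svs5. Ceacam10 shared at most 16 (6.4%) with any of them, since its alignment kept only short ends. A TATA box began 28 bases before the start in Svs5 and Svs4 and 32 bases before it in Svs6, and a GATA site began 82, 84 and 86 bases before the start in Svs5, Svs4 and Svs6. An androgen receptor half-site was found in Svs5 and Svs6, on the opposite strand, and 3 times in Ceacam10, of which the pair 118 and 112 bases before the start abut. Svs4 and Svs2 held none in this window. The full androgen response element, 2 inverted half-sites with 3 bases of any kind between them, was in none of the 5. Of 32851 RefSeq promoter windows of this length, 12.4% held the TATA box, 16.1% the half-site, 6.55% the GATA site and 0.00913% the full element. These matches describe the letters in the window alone. The sequences on the spots were not used here, so hybridisation of Svs5 RNA to the Svs6 spot, or the reverse, was not tested.

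Svs5, a secretory protein of the same rapidly evolving rodent family as Svs2, had the lowest mean ratio of all 12839 genes tested. Its log2 ratios on arrays 1 to 6 were -6.30, -7.02, -3.15, -6.35, -6.27 and -3.75. Their mean was -5.47 ± 1.60 (SD, n = 6), a 44.4-fold difference between the pools. Arrays 1, 2, 4 and 5 lay close together, and array 3 of one orientation and array 6 of the other gave much smaller ratios.

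Svs2, the semenogelin-like protein of the copulatory plug that also coats sperm, came next. It stood at -5.89 on array 1, -2.86 on array 3, -6.64 on array 4, -4.78 on array 5 and -5.35 on array 6. The mean was -5.10 ± 1.43 (SD, n = 5), or 34.3-fold. Array 3 again gave the smallest ratio, while array 6 lay among the others. On array 2 no value could be assigned to the Svs2 probe, because the best position had a posterior of 0.54.

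Pate4, also known as Svs7, a small cysteine-rich protein that binds to sperm, had the next lowest mean. Its values on arrays 1 to 6 were -3.36, -4.16, -1.84, -3.76, -2.83 and -0.45, with a mean of -2.73 ± 1.38 (SD, n = 6; 6.66-fold). Array 6 was far smaller than the rest and array 3 the next smallest. The values on arrays 1 and 2 depended on Pate4's own low reading. When the probes of the 6 genes carried no weight in the placement, array 2 gave -0.39 and array 1 gave no kept value, and the mean was -1.85 on 5 arrays.

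Svs6, a small protein encoded next to Svs5, stood at -2.82 on array 1, -0.92 on array 3, -2.75 on array 4, -2.89 on array 5 and -1.75 on array 6. The mean was -2.23 ± 0.87 (SD, n = 5; 4.68-fold), and arrays 3 and 6 were once more the smallest. Its array 2 value of -2.67 had a posterior of 0.90 and was not kept. With the 6 probes given no weight in the placement, the best row on array 2 held 0.27 and was not kept either.

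Ceacam10, a secreted member of the carcinoembryonic antigen family that binds to sperm, ranked 9th from the lowest. Its ratios on arrays 1 to 6 were -1.64, -2.37, 0.47, -2.24, -1.07 and -0.84, with a mean of -1.28 ± 1.05 (SD, n = 6; 2.43-fold). It was the one gene of the 6 with a positive value, on array 3.

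Svs4, the mouse counterpart of the basic rat protein SV-IV, ranked 15th. Its ratios on arrays 1 to 6 were -0.78, -1.54, -0.51, -1.83, -2.11 and -0.17, with a mean of -1.16 ± 0.78 (SD, n = 6; 2.23-fold). All 6 were negative, and arrays 6 and 3 lay nearest to 0.

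**Figure D1:**
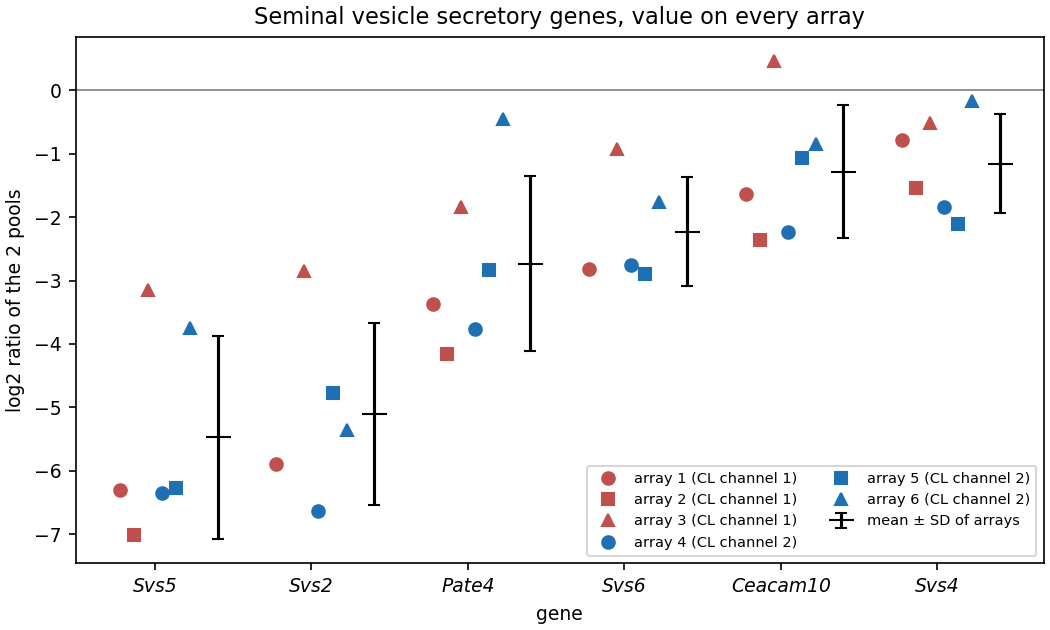
Log2 ratio of the 2 pools (vertical axis) for each of the 6 genes (horizontal axis), with 1 point per array, red for the CL-316,243 pool in channel 1 and blue for channel 2; black lines give the mean ± SD of the arrays. Svs5 and Svs2 lie lowest at means of -5.47 and -5.10, the triangles of arrays 3 and 6 are mostly nearest to 0, and Ceacam10 on array 3 alone is above 0 at 0.47.

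Of the 6 genes, 5 were negative on every array that measured them, against 7.02% of the genes tested; the choice of the genes used these signs, so nothing follows from the count. By the limma fit over all genes, with Benjamini-Hochberg adjustment, 1.18% of the 12839 genes were lower and 1.90% higher at an adjusted p under 0.05. Genes outside the 6 with a mean of -1 or below numbered 22, of which 16 passed that test in the negative direction, and none had a mean of -2 or below.

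Within the group, Svs5 and Svs2 differed by less than the spread between arrays, at -0.061 ± 1.13 (SD of the difference, n = 5 arrays), with Svs5 lower on 3 of 5. Svs2 lay below Pate4 on 5 of 5 arrays, by -2.65 ± 1.44. Pate4 and Svs6 differed by -0.22 ± 0.95, with Pate4 lower on 3 of 5. Svs6 lay below Ceacam10 on 5 of 5 arrays, by -1.16 ± 0.49. Ceacam10 and Svs4 differed by -0.12 ± 0.89, with Ceacam10 lower on 4 of 6.

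The genes of the chromosome 2 cluster spanned much of this range. Svs4 lay above Svs5 on every array, by 2.64 to 5.52 log2 units, and Svs6 lay above Svs5 by 2.00 to 3.60 although their upstream sequences are nearly identical. Pate4, on another chromosome, stood closer to Svs5 than Svs4 did on arrays 3 to 6, at 1.31 to 3.44 above it. On arrays 1 and 2 it did so too, but only with its own reading in the placement; without it, Pate4 was at -0.39 on array 2, above Svs4 at -1.54.

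The size of the ratios varied with the array for most of the group. The median over the measured genes of the 6 was -1.38 on array 3 and -1.30 on array 6, against -2.86 to -3.26 on the others. The spread over all spots moved little with this: the SD of all ratios was 0.456 on array 3 and 0.417 on array 6, against 0.423, 0.573 and 0.445 on arrays 1, 4 and 5, and 0.788 on array 2. With the arrays scaled to a common spread, that median was -1.41 on array 3 and -1.39 on array 6, against -2.65 to -3.42 on the others. The part of single arrays' chemistry or scanning in the smaller ratios was not tested.

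The 2 dye orientations are set side by side as a description, since genes chosen for low ratios on all arrays are drawn towards agreement between them. Svs5 had means of -5.49 ± 2.06 (SD, n = 3) with the CL-316,243 pool in channel 1 and -5.46 ± 1.48 (n = 3) with it in channel 2. Svs2 had the widest gap, at -4.37 on 2 arrays and -5.59 ± 0.96 on 3, a difference of 1.22. Pate4 stood at -3.12 ± 1.18 and -2.35 ± 1.71, Svs6 at -1.87 on 2 arrays and -2.46 ± 0.62, Ceacam10 at -1.18 ± 1.47 and -1.38 ± 0.75, and Svs4 at -0.94 ± 0.54 and -1.37 ± 1.05. Apart from Svs2 and Svs6, with 2 arrays in channel 1, each mean rests on 3 arrays, and the sign was the same in both orientations for all 6. Over all genes the orientation term of the limma fit was called for 0.00779% at an adjusted p under 0.05. Its unadjusted p was under 0.05 for 1349 of the 12839 genes, so few calls do not mean that the orientations gave equal ratios.

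**Figure D2:**
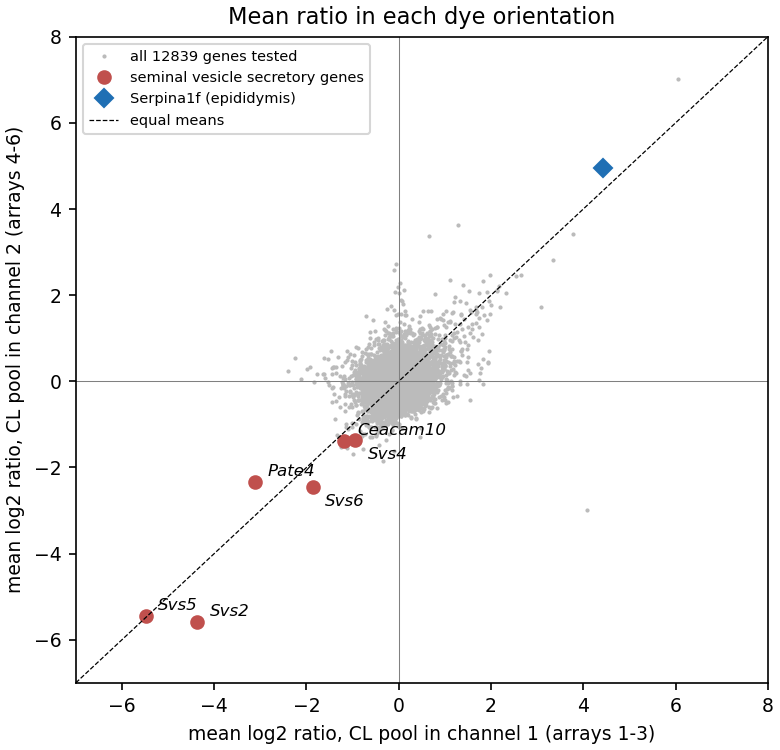
Mean log2 ratio with the CL-316,243 pool in channel 1 (horizontal axis, arrays 1 to 3) against that in channel 2 (vertical axis, arrays 4 to 6) for the 12839 genes tested in grey, the 6 seminal vesicle genes in red and Serpina1f in blue; the dashed line marks equal means. The 6 genes lie at the lower left with the same sign in both orientations, and Serpina1f lies at the upper right.

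The probes of the 6 genes were scattered over the probe numbers, from 2105 to 16691, and no pair was closer than 1191. Positions on the slide were not used. Averaged over arrays, the 10 spots numbered on either side of each gene's spot gave no such ratios. Around Svs5 their means ranged from -0.50 to 0.50 with a median of -0.11, around Pate4 from -0.34 to 0.78, around Svs6 from -0.56 to 0.79, around Ceacam10 from -0.31 to 0.50 and around Svs4 from -0.36 to 0.30. Around Svs2 they ranged from -0.40 to 1.46, with a median of 0.11. In these means each low ratio was thus limited to 1 spot among its 20 neighbours. Single arrays can differ. On array 2, the lowest value within 30 rows was in the row placed at the gene for Svs4, Svs5 and Pate4. For Ceacam10, Svs2 and Svs6 it was another row. A value of -3.19 lay 8 rows from Ceacam10's -2.37, and -3.83 lay 5 rows from the best position of Svs2. Near Svs6, -4.96 lay 17 rows from the best position. The placement used the genes' own low readings, so a lowest value at the gene was favoured in advance. With the 6 probes given no weight, Svs4 kept -1.54 on array 2. Svs5 then had a posterior of 0.76 there and was not kept, and Pate4 read -0.39.

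**Figure D3:**
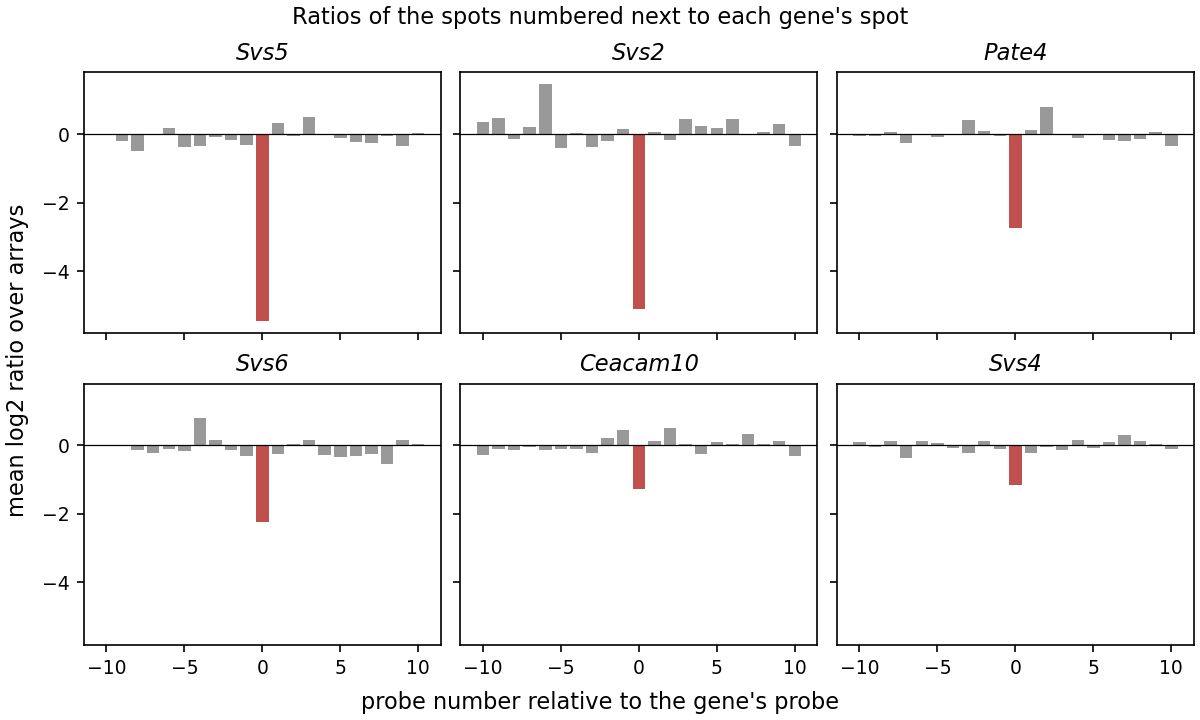
Mean log2 ratio over arrays (vertical axis) of each gene's spot, in red, and of the 10 spots numbered before and after it, in grey (horizontal axis, probe number relative to the gene's probe; each spot was measured on 4 to 6 arrays). The red bars reach from -1.16 for Svs4 to -5.47 for Svs5, while the grey bars lie between -0.56 and 1.46.

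Because the columns were placed by matching them to each other, the placement was repeated with the 6 probes left without weight, so that other spots alone decided which row was read. Of 36 gene and array pairs, 34 had a kept value at first and 31 after this, and 30 of the 31 came from the same row. The exception among these 31 was Pate4 on array 2. Best rows that were not kept after the repeat could move too. Pate4 on array 1 went from a kept -3.36 to 0.28. On array 2 the best row, kept in neither run, went from -2.67 to 0.27 for Svs6 and from -0.89 to 0.16 for Svs2. Svs2 (-5.10), Svs6 (-2.23) and Svs4 (-1.16) had unaltered means, Svs5 had -5.16 and Ceacam10 -1.06, each on 5 arrays. After this only Svs4 and Pate4 of the 6 had a kept value on array 2, so the array 2 values of Svs5 and Ceacam10 also rested on those spots' own readings.

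Other genes of the vesicle, and relatives of the 6, did not pass the test where the array held them. Of 9 further genes of the vesicle and of the Pate and Ceacam families, none passed by limma at an adjusted p under 0.05 over all genes, against 3.08% of all genes tested; 1 had an unadjusted p under 0.05, a level that 18.5% of all genes reached. Their median was 0.057, against -0.013 over all genes. That 1 gene was Sva, the seminal vesicle antigen, at -0.66 ± 0.25 (SE, limma adjusted p = 0.21). Its ratios were -1.14 on array 1, 0.29 on array 3, -1.57 on array 4, -0.99 on array 5 and -0.14 on array 6, so it was negative on 4 of 5 arrays and nearest to or above 0 on arrays 3 and 6. Sval2, its relative, stood at 0.39 ± 0.30 (adjusted p = 0.537) and rested on 2.32 on array 5. The Pate genes Pate5 (0.17 ± 0.15) and Pate6 (-0.061 ± 0.10), the Ceacam genes Ceacam2 (0.10 ± 0.14) and Ceacam9 (0.18 ± 0.15), and Spink1, a trypsin inhibitor (-0.093 ± 0.11), were all near 0. The 30 names on this list include Svs7, the other name of Pate4. Only 10 of the 30 have a named probe under the listed name, and Svs1, Svs3a and Svs3b have none. The list thus covers the other products of the vesicle only in part.

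The genes that flank the Svs cluster on chromosome 2 did not share its ratios. Of the 20 nearest protein-coding genes, 10 on each side, 16 were tested, and their median was -0.016. Next to the cluster, Wfdc15b stood at -0.30 ± 0.16 and Slpi, a secreted protease inhibitor, at 0.26 ± 0.14. Matn4 (-0.021 ± 0.12) and Rbpjl (0.057 ± 0.13) followed, and Wfdc12 was the lowest at -0.44 ± 0.11 (limma adjusted p = 0.0616). Sdc4, which encodes the cell surface proteoglycan syndecan-4, was the 1 flanking gene that passed, and it was higher: 1.92 on array 1, 1.19 on array 3, 1.94 on array 4, 1.88 on array 5 and 1.03 on array 6, with a fitted ratio of 1.58 ± 0.18 (SE, adjusted p = 0.00282). In the wider list of 19 cluster neighbours and WAP-domain genes it was again the only one that passed, against 3.08% of all genes. The median of that list was -0.021.

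Among markers of the epididymis, 1 of 18 tested genes passed, against 3.08% of all genes tested, and that gene ran the other way. Serpina1f, a serpin made in the epididymis, was at 5.05, 6.01, 2.20, 5.47, 5.43 and 3.95 on arrays 1 to 6, with a fitted ratio of 4.68 ± 0.41 (SE, limma adjusted p = 0.00061), or 25.7-fold higher. Its smallest ratios were on arrays 3 and 6, as for Svs5. At a posterior minimum of 0.99 the array 2 value of Serpina1f was not kept, and the fitted ratio was 4.29 on 5 arrays. Its own readings had weight in every placement. The other 17 did not pass, among them the lipocalins Lcn8 (0.13 ± 0.11) and Lcn12 (0.14 ± 0.11), Crisp4, a sperm-binding protein (-0.085 ± 0.12), the cystatins Cst11 (-0.23 ± 0.16) and Cst12 (0.33 ± 0.22) and the ribonuclease-like Rnase10 (-0.11 ± 0.11). The list ranged from -0.27 to 4.68 with a median of 0.060, and 2 of the 18 had an unadjusted p under 0.05, against 18.5% of all genes. Lcn5, Adam7 and Gpx5 had too few kept values to be tested. The part of other tissue in either pool was not tested.

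Of 14 genes of the prostate and coagulating gland, 1 passed, against 3.08% of all genes tested. Hoxb13, a homeobox transcription factor of the prostate, was at 0.60 ± 0.12 (SE, n = 5 arrays, limma adjusted p = 0.0337) and did not pass without array 4 (0.56), 5 (0.61) or 6 (0.63). It had no value on array 2, so it could not be tested without array 1 or 3. Pbsn, the prostate secretory protein probasin, was at -0.034 ± 0.14, with 3 of 6 arrays negative, Msmb at 0.28 ± 0.16 and Sbp, the spermine-binding protein, at 0.11 ± 0.11. The list had a median of -0.12 and ranged from -0.48 for Rnase1 to 0.60.

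None of 25 testis genes passed by limma, against 3.08% of all genes tested. An unadjusted limma p under 0.05 was found for 6, against 18.5% of all genes, and the median was 0.013. Prm2, a protamine that packs sperm DNA, came near the threshold at -0.65 ± 0.15 (adjusted p = 0.0513), with all 6 arrays negative from -1.30 to -0.21. It passed without array 6 (-0.76, adjusted p = 0.0494), at a posterior minimum of 0.99 (0.0462), with 1 probe per gene (0.0491), with no orientation term (0.0442) and with the arrays scaled alike (0.0451), over a range of 0.0442 to 0.197 among all alternatives that used the placement. Tssk1, a testis kinase, was at 0.75 ± 0.28 (adjusted p = 0.198).

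Of 19 epithelial genes, 1 passed, against 3.08% of all genes tested, and none was called lower, against 1.18%. Krt18, a keratin of simple epithelia, was at 0.69 ± 0.15 (SE, limma adjusted p = 0.0429), with 1.56 and 1.11 on arrays 1 and 2 and 0.31 to 0.43 on the others. It did not pass without array 1 (0.55), 2 (0.66), 4 (0.70), 5 (0.69) or 6 (0.67), at a posterior minimum of 0.99 (adjusted p = 0.0829) or 0.5 (0.0543), or with no orientation term (0.0678). Its partner Krt8 was at -0.35 ± 0.13 (adjusted p = 0.212). In all, 7 of the 19 had an unadjusted limma p under 0.05, against 18.5% of all genes, and the list's median was 0.20.

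Of 13 smooth muscle genes, 7 had an unadjusted limma p under 0.05, against 18.5% of all genes, and the list median was 0.32. By the adjusted p 3 passed, against 3.08% of all genes tested, and all 3 were higher. These were Cnn1, an actin-binding protein of smooth muscle (1.26 ± 0.27, limma adjusted p = 0.0446), Des, the muscle intermediate filament desmin (0.90 ± 0.12, adjusted p = 0.00675), and Acta2, smooth muscle actin (0.70 ± 0.11, adjusted p = 0.0111). Cnn1 did not pass without array 4 (1.16) or 5 (1.18), nor Acta2 without array 5 (0.69). Cnn1 and Des had no value on array 2, so they could not be tested without array 1 or 3. In the list of 14 fat cell genes 2 passed, both higher. They were Dgat2, a triglyceride synthesis enzyme (1.19 ± 0.13), and Plin4, a lipid droplet protein (1.01 ± 0.19 on 4 arrays). Plin4 did not pass at a posterior minimum of 0.5 (0.89, limma adjusted p = 0.0644). It had no value on arrays 2 and 4, so leaving out array 4 kept its ratio at 1.01, while its limma adjusted p became 0.0503. Without array 1, 3, 5 or 6 it had too few arrays to be tested. Dgat2 stood at 1.93 with the CL-316,243 pool in channel 1 and at 0.45 (adjusted p = 0.247) with it in channel 2, and its orientation term had an unadjusted p of 0.00023 (adjusted 0.296). Pparg, the master regulator of fat cell formation, was negative on all 5 of its arrays, at -0.47 ± 0.11 (limma adjusted p = 0.0647). The list's median was 0.37. Beside its 2 calls of 14, 3.08% of all genes tested passed. An unadjusted limma p under 0.05 was found for 9 of the 14, against 18.5% of all genes.

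In the arrays of 1 orientation alone, Serpina1f passed in both orientations. Each array's rows had been placed by matching to the other arrays, those of the other orientation included, which favours agreement between orientations. Sdc4, Cnn1 and Acta2 passed with the CL-316,243 pool in channel 2 alone, and Dgat2 with it in channel 1 alone. Only 2 arrays measured Sdc4, Cnn1, Des, Hoxb13 and Plin4 in channel 1, and Plin4 in channel 2. Sdc4 stood at 1.56 on 2 arrays in channel 1 (limma adjusted p = 0.0556) and at 1.61 on 3 in channel 2. A call made in 1 orientation alone thus need not mean a different ratio. Hoxb13, Krt18, Des and Plin4 passed in neither. Cnn1 moved from 0.96 in channel 1 to 1.56 in channel 2, Des from 1.12 to 0.68, Krt18 from 0.99 to 0.38 and Plin4 from 0.79 to 1.23, and all signs were kept.

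**Figure D4:**
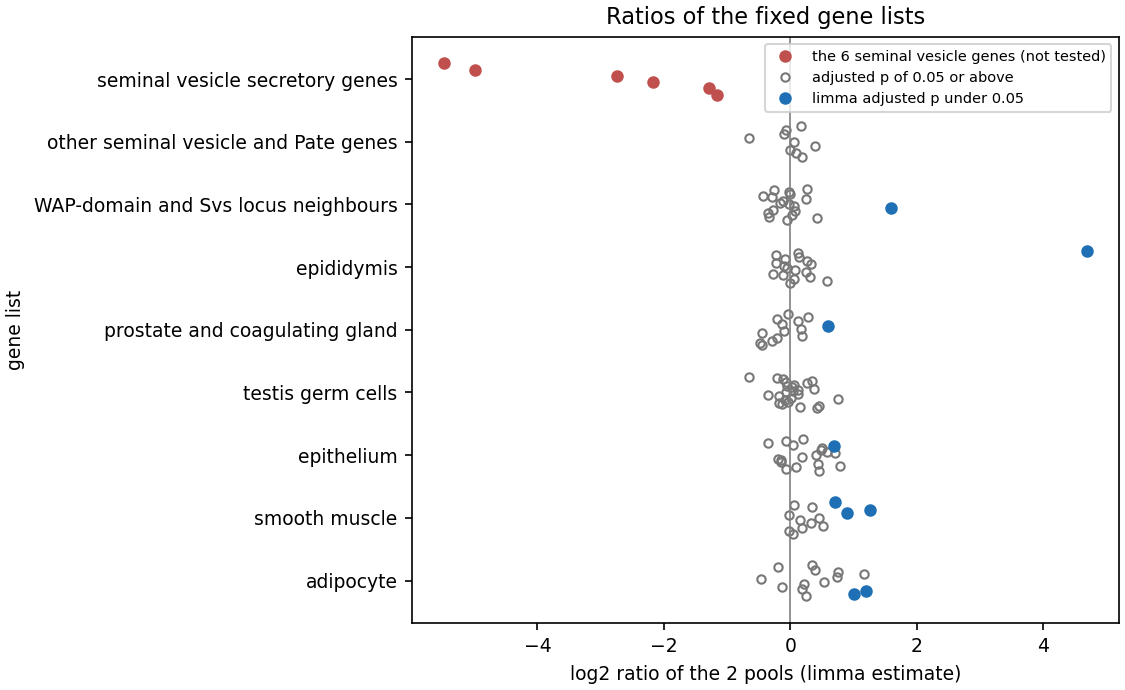
Fitted log2 ratio of the 2 pools (horizontal axis) for each tested gene of 9 lists (rows), with 1 point per gene; the 6 seminal vesicle genes are red, genes with a limma adjusted p under 0.05 are filled blue and the rest are open. The red points lie between -5.47 and -1.16, and in the other lists the lowest point is at -0.66, while Serpina1f of the epididymis list stands alone at 4.68.

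The mean profile of the 6 was -3.46, -3.77, -1.47, -3.93, -3.33 and -2.05 on arrays 1 to 6, with 4 of the 6 measured on array 2. Among 7845 genes with values on all 6 arrays, the nearest by root mean square difference was Klf15, a transcription factor of fat and liver metabolism, still 1.68 log2 units away. Its ratios were -1.60, -1.50, -0.64, -2.01, -2.02 and -0.58, smallest on arrays 6 and 3. The mean of Klf15, -1.39, lay near those of Ceacam10 (-1.28) and Svs4 (-1.16). Trp53inp1 (1.83 away, mean -1.33), the chemokine Ccl8 (1.91, mean -1.29), Gjd4 (2.06, mean -1.10) and Lyve1, a hyaluronan receptor of lymphatic vessels and macrophages (2.10, mean -1.13, with -3.01 on array 2), followed.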

How the data were processed

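The authors deposited log2 ratios of both channels (base 2 assumed), normalized by them with 1 scale factor for the dyes and then LOWESS; QuantArray 3.0 read the scanned slides, per the labels' protocols. The sources used here do not state the background correction, spot filter, log base or numerator. Columns were empty only at their ends (1 to 724 rows), so each was placed on probe numbers 1 to 19200 by a hidden Markov model that lets columns lose spots but gain none. Normal scores clipped at 3 were predicted from the other arrays in 3 rounds from 25 starts, and a value was kept at a posterior of at least 0.95 (64.2% to 99.8% of probes). On simulated columns at least 98.9% of kept positions were right. These columns had the correlations of the placed arrays and losses drawn as the model assumes, so the setting favours the method. In the data, Pate4 on array 2 had a posterior of 1.00 at -4.16, and also at -0.39 once the 6 probes had no weight. The platform annotation names 14711 probes by 1 symbol, 6 by several and leaves 4483 unnamed here; 14416 Entrez identifiers matched RefSeq, and 0 symbols changed. Log2 ratios, averaged over a gene's probes, were fitted with limma 3.58.1 (R 4.3.3) with orientation as a term, for genes with at least 2 arrays per orientation. The labels spell the agonist CL-316,243 in titles and CL316,246 in a description. The text names all 6 genes, up to 6 passing genes of each list (or the 2 largest) and the 5 nearest profiles; further list members were named after their values were seen. The genes and lists were chosen with earlier results of these data known. Alternatives changed the placement, posterior, arrays, scaling, probe rule and dye term.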

Additional observations from a re-analysis of the deposited data

Results flagged for a closer look

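Sval2 was marked because 1 array stood far from the others: its log2 ratio was 2.32 on array 5 and between -0.24 and 0.16 on the 4 other arrays that measured it. Chance marks about 1 in 20 such groups of values. None of the 6 seminal vesicle genes had an array this far out by the same measure, arrays 3 and 6 included.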

How the results depend on the processing

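Across 84 recalculations of the 6 genes every mean stayed negative and within 1 SD of the reported one. The changes were each array left out, each orientation alone, a posterior minimum of 0.99 or 0.5, and placement without the 6 probes. The others were arrays scaled alike, 1 probe per gene and the median over arrays. The genes were selected on these same ratios, so such agreement was largely fixed in advance. The placement was not repeated when arrays were left out, so those fits still drew on all 6 arrays. Each gene has 1 probe, so the probe rule could change nothing, and the minimum of 0.99 left all 6 means as they were. Svs2 and Svs6 had no kept value on array 2 to leave out. The SDs are wide: Pate4 moved from -2.73 to -1.85 within its SD of 1.38. Leaving out single arrays gave -5.94 to -5.16 for Svs5, -5.66 to -4.72 for Svs2, -3.19 to -2.45 for Pate4, -2.55 to -2.06 for Svs6, -1.63 to -1.06 for Ceacam10 and -1.35 to -0.97 for Svs4. With rows read as deposited the ratios were lost: 0.036 for Svs5, -1.08 for Svs2, -0.12 for Pate4, -0.40 for Svs6, -0.13 for Ceacam10 and 0.031 for Svs4, and Serpina1f (-0.0085), Prm2 (0.17), Acta2 (-0.12) and Sval2 (-0.082) changed sign. No gene (0) then passed limma, higher or lower or in the lists, with 489 at an unadjusted p under 0.05; every result therefore rests on the placement. Over all genes 395 passed, 244 higher and 151 lower; without 1 array there were 126 to 365 (148 without array 1, 212 without 4, 126 without 5), 95 to 214 higher and 31 to 163 lower, on 8066 to 12789 genes. The lists' 9 calls became 3 to 9. With the CL-316,243 pool in channel 1 alone there were 64 calls, 54 higher, 10 lower and 2 in the lists, and Sval2 was at -0.084; in channel 2 alone there were 210, 117, 93 and 5. Each ratio compares both pools on 1 array, so the fit already pairs the pools within arrays. Arrays of the 2 orientations could not be paired with each other because they share no array numbers. The number of arrays and the single pair of pools limit the precision.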

Other observations

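The 4483 probes without a gene name here were not part of the comparisons. Of 4451 with kept values on at least 4 arrays, 6 had a mean log2 ratio of -1 or below and none reached -2. The lowest, probe 633, stood at -1.67 on array 1, -0.57 on array 3, -1.53 on array 4, -1.55 on array 5 and -1.80 on array 6, with a mean of -1.43. The next lowest, probe 7083 at a mean of -1.22, rested on -7.35 on array 2, with -0.19 to 0.19 on the other arrays.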
